A study of Mus musculus with 17 samples.

Results

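The genes described here encode the proteins of the cytosolic ribosome, and their RNA was measured in the tibialis anterior, a hind-limb muscle, of mice with and without dystrophin and of dystrophin-lacking mice that carry a utrophin transgene. Members were the genes whose only symbol in the platform annotation begins with Rpl or Rps and a number, or is Rpsa, Rplp0, Rplp1 or Rplp2, without S6 kinases, pseudogenes and other paralogues, save Rpl3l. This rule found 43 genes, 23 of the large and 20 of the small subunit, among the 12393 genes with a single symbol on the array. Each gene was read on its brightest probe set. The 17 arrays, 1 per animal, came from 5 fiona, 6 mdx and 6 normal mice, all labelled male and aged 56 days. Fiona mice carry a transgene for utrophin, a relative of dystrophin, on the mdx background, mdx mice carry a mutation in the dystrophin gene, and normal mice are wild type. The promoter of the transgene and the strain of the normal mice are not given in the sources used here. Both muscles of an animal were pooled, so each array averaged over all cell types of the tissue. In such samples a larger number of cells of a type and more RNA per cell cannot be told apart.

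Cytosolic ribosomes join a large and a small subunit, each an assembly of ribosomal RNA with many small, mostly basic proteins that are made in matched amounts. Vertebrate ribosomal protein transcripts typically begin with a tract of pyrimidines, the 5′ TOP motif, through which their translation responds to mTOR signalling and to Larp1. Growing, regenerating and proliferating cells produce many ribosomes, and adult striated muscle also makes Rpl3l, a paralogue of the core protein Rpl3.

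Pyrimidine tracts near the transcription start were the sequence feature most of the members shared, and promoters of 7 members named below are shown. Other called members with a window are not shown. Among these, the longest runs in Rps4x and Rps3a1 had 7 and 6 bases and began 40 and 28 bases after the start. Those in Rpl6 and Rpl41 had 11 and 10 bases and began 31 and 40 bases after it. RefSeq promoter windows on mouse build GRCm38.p6 were found for 38 members, in 45 windows reaching from 250 bases before to 50 bases after a start. The stretches run 5′ to 3′ from 60 bases before to 30 bases after the start, so that their last 30 bases open the first exon. Capitals mark the longest run of C and T within 50 bases of the start, counting only the bases inside that span. Where runs tie in length, the first is marked. They come from Rpl13a (chr7:45128716-45128805, minus strand), Rpl10a (chr17:28328505-28328594, plus strand), Rpl27 (chr11:101442185-101442274, plus strand), Rpl38 (chr11:114668520-114668609, plus strand), Rps10 (chr17:27635215-27635304, minus strand), Rpsa (chr9:120127706-120127795, plus strand) and Rpl3l (chr17:24727766-24727855, plus strand).
Rpl13a: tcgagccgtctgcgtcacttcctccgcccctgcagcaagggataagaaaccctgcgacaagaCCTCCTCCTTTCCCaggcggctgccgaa
Rpl10a: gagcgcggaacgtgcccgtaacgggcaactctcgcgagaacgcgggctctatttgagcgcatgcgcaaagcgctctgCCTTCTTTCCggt
Rpl27: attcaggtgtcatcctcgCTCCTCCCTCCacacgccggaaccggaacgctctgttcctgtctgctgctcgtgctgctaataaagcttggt
Rpl38: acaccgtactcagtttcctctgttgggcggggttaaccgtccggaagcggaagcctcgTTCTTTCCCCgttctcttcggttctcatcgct
Rps10: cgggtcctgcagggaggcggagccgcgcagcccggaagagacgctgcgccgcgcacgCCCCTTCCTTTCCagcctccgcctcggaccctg
Rpsa: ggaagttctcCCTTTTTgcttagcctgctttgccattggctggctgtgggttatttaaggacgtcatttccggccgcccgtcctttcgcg
Rpl3l: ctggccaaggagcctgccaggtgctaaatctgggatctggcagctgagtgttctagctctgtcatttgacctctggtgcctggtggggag
In Rpl13a, Rpl38 and Rps10 the marked run lies across or within a few bases of the start, in Rpl10a it begins 17 bases after it, and in Rpl27 it lies upstream. In the Rpsa window the marked 7 bases are the part inside the span of a run of 12 bases that begins 55 bases before the start. Another Rpsa run of 7 bases, tcctttc, lies after the start and is not marked. Rpl3l shows no capitals because its longest run, CCCCTTCCT, begins 31 bases after the start, past the stretch shown. Rpl10a and Rpl3l each have another window, which is not shown. For Rpl10a the window with the longer run was picked, and the other has a run of 7 bases beginning 9 bases before its start. For Rpl3l the window was picked by position on the chromosome, and the longest run in the other has 4 bases. A run of at least 8 pyrimidines within 50 bases of the start stood in 34 of 45 member windows (75.6%), against 33.8% of the 12559 windows of all genes tested and 35.7% of all 32851 windows. The median longest run was 11 bases in the member windows, against 6 in those of genes tested. The letters CCGGAA, the core of sites for ETS factors, were found on either strand in 55.6% of member windows, against 22.5% of windows of genes tested. The letters GGGCGG, as in SP1 sites, stood in 51.1% against 55.4%, CACGTG in 11.1% against 9.11%, CANNTG, which takes in CACGTG, in 57.8% against 66.5%, TATAAA in 11.1% against 9.80%, and AAGATGGC, as in YY1 sites, in 6.67% against 3.60%. These matches describe letters in a window and were not tested for binding.

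The deposited values are on a log2 scale, and the level of a gene cannot be compared with that of another gene, since each probe set binds with its own strength. Of the 43 members, 35 had a mean level above 10. The array background was taken as each array's median over 15 control probe sets for bacterial transcripts absent from mouse, and it lay between 2.75 and 2.99 on fiona arrays, between 2.65 and 2.75 on mdx arrays and between 2.64 and 2.87 on normal arrays. Rpl12 and Rps27 lay at or under this level on all 17 arrays and Rps25 on 13, and the other 40 members lay above it on every array. Low values as a whole were raised on fiona arrays: 56.1% of the genes at or under background on some array were called higher in fiona than in mdx, against 21.1% of the genes above it on every array. Dividing the arrays by the largest component of their differences within groups gave a set of 8 and a set of 9 arrays, each with animals of all 3 groups. The female transcript Xist was high and the Y-linked Eif2s3y low on 7 arrays, namely fiona 1, 2, 3 and 5, mdx 1 and 4 and normal 6, which goes against their label of male. On mdx array 6, kept with the male-pattern arrays, Xist was intermediate at 5.40, against 1.94 to 2.47 on the other 9 of them, and Eif2s3y was high at 8.11. On mdx array 1 the 3′ Gapdh control probe set exceeded the 5′ one by 2.54, against -0.43 to 0.06 on the other 16 arrays, and that array gave the highest value of all 17 in 28 of the 43 members. Results are therefore also given without mdx array 1, without the 7 arrays and within the array sets.

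The members were higher in mdx muscle than in either other group on the scale of whole arrays. The median over the 43 genes, each taken relative to its mean over normal arrays, was 0.02, 0.16, 0.01, 0.0015 and -0.01 on fiona arrays 1 to 5. It was 0.69, 0.18, 0.37, 0.26, 0.20 and 0.23 on mdx arrays 1 to 6. On normal arrays 1 to 6 it was -0.05, 0.0056, -0.05, 0.0094, 0.03 and 0.12. Every mdx array lay above every fiona and every normal array, and fiona and normal arrays overlapped. The highest value belonged to mdx array 1, and the next highest mdx array had 0.37.

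**Figure D1:**
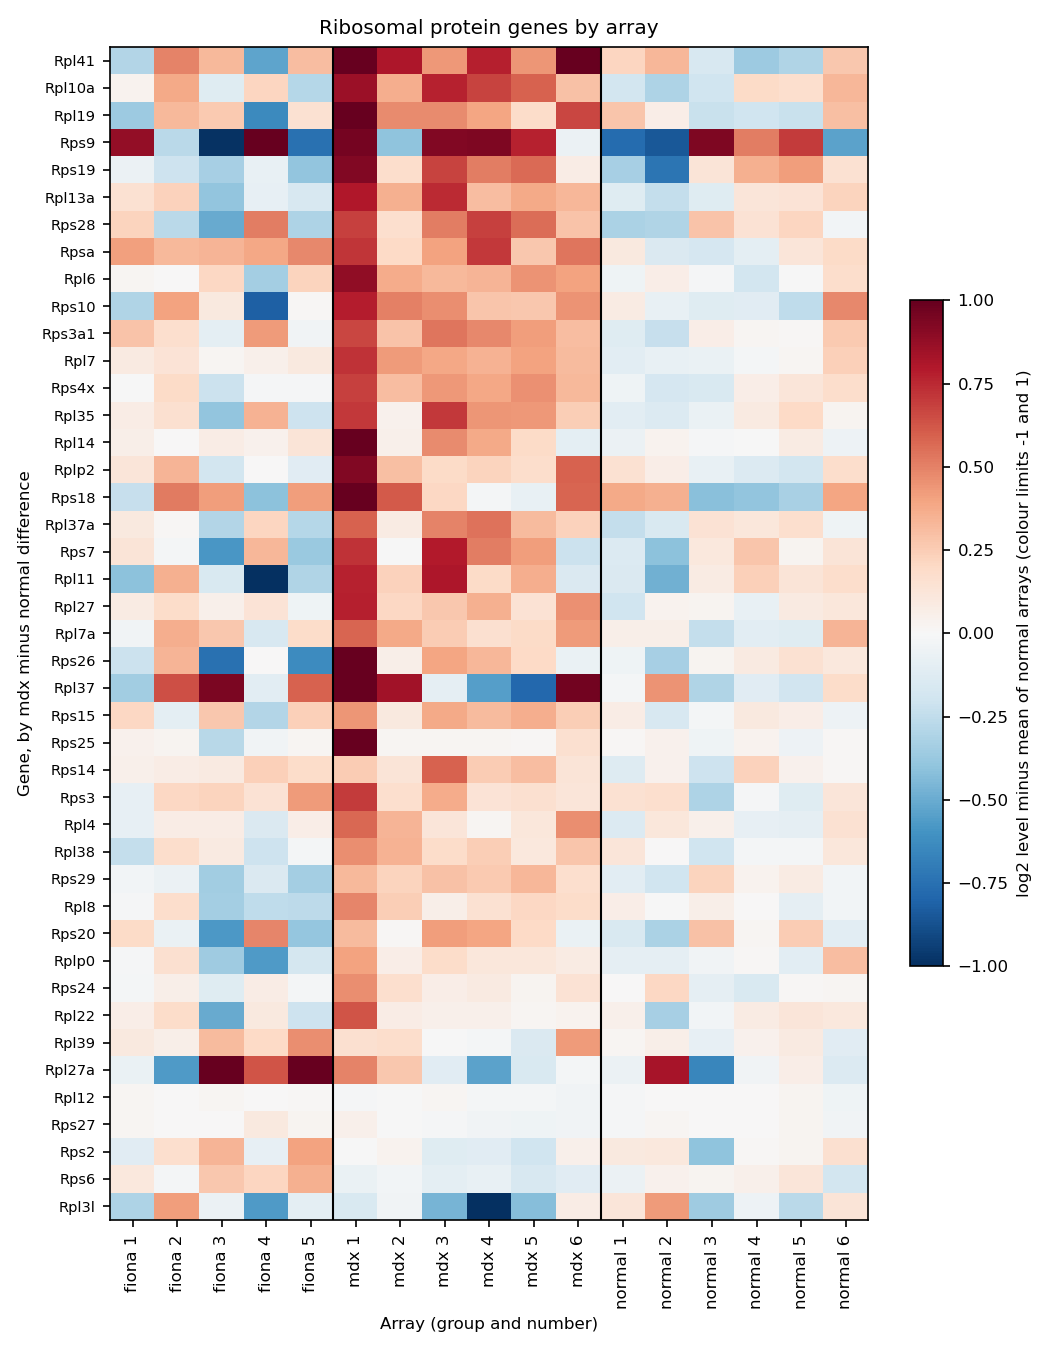
Each row is 1 of the 43 ribosomal protein genes, ordered by mdx minus normal difference, and each column is 1 array of the fiona, mdx and normal groups from left to right. Colour gives the log2 level minus the gene's mean over normal arrays, with colours limited at -1 and 1. The mdx columns are mostly above 0, and mdx 1 is the column farthest above it.

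mdx muscle was compared with normal muscle to ask how the ribosomal protein transcripts differ where dystrophin is missing. By limma with Benjamini-Hochberg adjustment over all 12393 genes, 10 of the 43 members (23.3%) were higher in mdx muscle at an adjusted p under 0.05, and 0 were lower. Among all genes tested 3.22% were called higher and 1.44% lower, and among the 617 genes with a mean level over 10, 6.32% were called higher. The median difference of the members was 0.33, a 1.26-fold higher level, against -0.04 over all genes. In 37 of 43 members the mean was higher in mdx. Large subunit genes had a median difference of 0.37 with 6 of 23 higher, and small subunit genes of 0.31 with 4 of 20 higher. Groups did not overlap, with every mdx array higher, in 8 members, against 2.54% of all genes.

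Rpl7, a large subunit protein that binds ribosomal RNA, had the smallest p of the members. Rpl7 had 12.59, 12.29, 12.25, 12.21, 12.27 and 12.18 on mdx arrays 1 to 6, against 11.76, 11.79, 11.80, 11.85, 11.88 and 12.11 on normal arrays 1 to 6. All 6 mdx arrays lay above all 6 normal arrays. The difference was 0.43 (SE 0.07, adjusted p 0.00111). It rests on a probe set of a kind that can bind related transcripts. Other Rpl7 probe sets, with means of 11.5 and 9.48, gave 0.60 (adjusted p 0.00901 over all probe sets) and 0.15 (adjusted p 0.215). Rpl6, which also belongs to the large subunit, had a difference of 0.46 (SE 0.11, adjusted p 0.0185), again with no overlap between the groups. Rpl10a forms the mobile L1 stalk, beside which spent transfer RNA leaves the ribosome. Rpl10a had 12.32, 11.82, 12.23, 12.14, 12.05 and 11.76 on mdx arrays 1 to 6, against 11.28, 11.15, 11.27, 11.65, 11.63 and 11.80 on normal arrays 1 to 6. The lowest mdx array fell just under the highest normal array. The difference was 0.59 (SE 0.14, adjusted p 0.0217). Rpl13a is known also outside the ribosome, where it joins a complex that silences inflammatory transcripts, and it was higher by 0.49 (SE 0.12, adjusted p 0.0321). Rpl27, a further large subunit protein, was higher by 0.37 (SE 0.09, adjusted p 0.0269). Other Rpl27 probe sets, with means of 9.93 and 10.9, gave 0.34 (adjusted p 0.348 over all probe sets) and 0.41 (adjusted p 0.399). Other Rpl13a probe sets, with means of 8.25, 7.29 and 11.6, gave 0.71 (adjusted p 0.0150 over all probe sets), 1.43 (adjusted p 0.118) and 0.42 (adjusted p 0.316).

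Rpl41, the smallest ribosomal protein and a short basic peptide, had the widest difference among the members called. Rpl41 had 13.60, 12.78, 12.40, 12.75, 12.41 and 13.20 on mdx arrays 1 to 6, against 12.19, 12.31, 11.81, 11.61, 11.67 and 12.25 on normal arrays 1 to 6. The groups did not overlap, and mdx array 1 was the highest. The difference was 0.89 (SE 0.23, adjusted p 0.0363), a 1.85-fold higher level. It rests on 1 probe set of a kind that can bind related transcripts. With all such probe sets left out, Rpl41 was read on a dim probe set and its difference was 0.058 (adjusted p 0.60). The next brightest Rpl41 probe set, of the same kind as the main one and with a mean of 10.6, gave 0.56 (adjusted p 0.318 over all probe sets).

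Among the small subunit genes, Rps4x, the X-linked form of S4, was higher in mdx. Rps4x had 12.39, 12.02, 12.15, 12.10, 12.17 and 12.04 on mdx arrays 1 to 6, against 11.67, 11.54, 11.56, 11.78, 11.83 and 11.89 on normal arrays 1 to 6. All mdx arrays exceeded all normal arrays, and the difference was 0.43 (SE 0.08, adjusted p 0.00427). Without the arrays of female pattern it was 0.42 (adjusted p 0.0188). Rpsa, a small subunit protein also known as the precursor of the laminin receptor, had levels that were likewise apart. Rpsa had 11.24, 10.72, 10.92, 11.23, 10.79 and 11.06 on mdx arrays 1 to 6, against 10.62, 10.37, 10.36, 10.42, 10.64 and 10.71 on normal arrays 1 to 6. The lowest mdx value, 10.72, stood just over the highest normal value, 10.71. The difference was 0.47 (SE 0.09, adjusted p 0.00641). Rps3a1, a small subunit protein, was higher by 0.45 (SE 0.10, adjusted p 0.0142). Rps29, a small zinc-binding protein of the subunit head, was higher by 0.27 (SE 0.07, adjusted p 0.0434), with overlapping groups. That call was lost in 11 of the 17 fits that left out 1 array and under 9 of 11 other settings. The other Rps29 probe sets gave 0.27 (adjusted p 0.118 over all probe sets) and 0.26 (adjusted p 0.355).

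**Figure D2:**
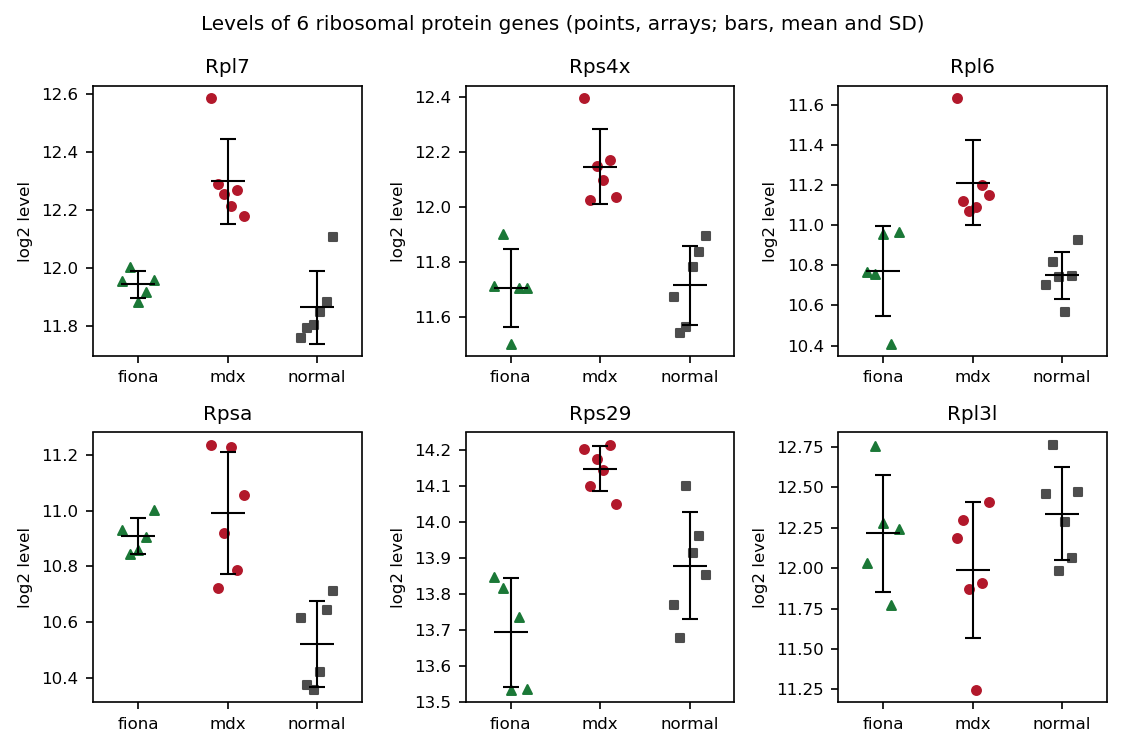
Log2 levels of Rpl7, Rps4x, Rpl6, Rpsa, Rps29 and Rpl3l are plotted for the fiona, mdx and normal arrays from left to right, with a point per array and bars for mean and SD; each panel has its own axis. In Rpl7, Rps4x and Rpl6 the mdx points stand above both other groups, while in Rpsa the fiona points lie among the mdx points.

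The number called depended on single arrays. Without mdx array 1, 6 members stayed higher (Rpl7, Rps4x, Rpsa, Rps3a1, Rpl6 and Rpl27), against 2.89% of all genes. Rpl10a then had a difference of 0.54 (adjusted p 0.0520), Rpl13a of 0.42 (adjusted p 0.0699), Rpl41 of 0.74 (adjusted p 0.0699) and Rps29 of 0.26 (adjusted p 0.0855). Without normal array 1, 5 members were called higher (Rpl6, Rpl7, Rps3a1, Rps4x and Rpsa), against 2.61% of all genes. Leaving out each array in turn ended the call of Rpl41 in 7 of 17 fits, of Rpl10a and of Rpl13a in 5 and of Rpl27 in 3. Without the 7 arrays of female pattern 7 were called higher, against 2.09% of all genes, and the median difference was 0.27. Within the set of 8 arrays 16 members were called higher and 1 lower (Rps6, with a difference of -0.18 and an adjusted p of 0.0445), where 5.56% of all genes were higher and 15.1% lower. Within the set of 9 arrays 0 members were called, where 1.39% of all genes were higher and 0.807% lower, and 23 members were higher at an unadjusted p under 0.05 with a median difference of 0.42.

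fiona muscle was compared with mdx muscle to ask what differs when utrophin is supplied. By limma with the same adjustment, 22 of the 43 members were lower in fiona muscle and 1 was higher. The share over all genes was 6.79% lower and 32.1% higher, and over genes with a mean level over 10 it was 12.6% lower and 10.4% higher. The members' median difference was -0.32, against 0.08 over all genes, and 35 of 43 members had the lower mean in fiona. Of the 23 large subunit genes 15 were lower, and of the 20 small subunit genes 7 were lower. Every fiona array lay below every mdx array in 6 members (Rpl13a, Rpl6, Rpl7, Rps19, Rps29 and Rps4x), against 2.40% of all genes. This comparison and the preceding one share the 6 mdx arrays, so their values are not independent of each other.

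Rps29 had the smallest p of the members here. Rps29 had 13.85, 13.82, 13.53, 13.74 and 13.54 on fiona arrays 1 to 5, against 14.20, 14.10, 14.18, 14.14, 14.21 and 14.05 on mdx arrays 1 to 6. All 5 fiona arrays were below the 6 mdx arrays, and the difference was -0.45 (SE 0.08, adjusted p 0.00228). That result rests on 1 probe set of the kind that can bind related transcripts. The other Rps29 probe sets, of the same kind and with means of 12.1 and 11.9, were not called. They gave -0.25 (adjusted p 0.282 over all probe sets) and -0.06 (adjusted p 0.633). Rps4x on fiona arrays 1 to 5 had 11.71, 11.90, 11.50, 11.70 and 11.70, all below its mdx values given above. Its difference was -0.44 (SE 0.08, adjusted p 0.00613). Rpl7 on fiona arrays was nearly constant at 11.96, 12.004, 11.88, 11.92 and 11.96, and its difference from mdx was -0.36 (SE 0.07, adjusted p 0.00811). Its other probe sets gave -0.64 (adjusted p 0.00951 over all probe sets) and -0.08 (adjusted p 0.332). Rps19, the small subunit protein first linked to Diamond-Blackfan anaemia in humans, differed more widely. Rps19 had 10.40, 10.25, 10.13, 10.39 and 10.07 on fiona arrays 1 to 5, against 11.39, 10.64, 11.14, 10.98, 11.03 and 10.54 on mdx arrays 1 to 6. The lowest mdx array was 10.54 and the highest fiona array 10.40. The difference was -0.70 (SE 0.20, adjusted p 0.0158).

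The other members named by rank were lower in fiona by differences between -0.83 and -0.31. Rpl41 on fiona arrays 1 to 5 had 11.68, 12.47, 12.30, 11.45 and 12.28, with a difference from mdx of -0.83 (SE 0.24, adjusted p 0.0181). For Rpl10a the difference was -0.55 (SE 0.15, adjusted p 0.0143), for Rpl13a -0.54 (SE 0.13, adjusted p 0.0135) and for Rpl6 -0.44 (SE 0.11, adjusted p 0.0136). Rpl8, which lies beside the centre where peptide bonds form, had a difference of -0.36 (SE 0.09, adjusted p 0.0135). Rpl38, whose mutation gives the short-tailed Ts mouse, had one of -0.31 (SE 0.08, adjusted p 0.0151), and the zinc-binding Rpl37a one of -0.43 (SE 0.12, adjusted p 0.0152). Rps10, at the entry of the messenger RNA channel and mutated in some humans with Diamond-Blackfan anaemia, had one of -0.58 (SE 0.18, adjusted p 0.0245). The remaining 10 members called lower were Rpl4, Rpl11, Rpl19, Rpl27, Rpl35, Rplp0, Rplp2, Rps3a1, Rps26 and Rps28, with differences from -0.68 in Rpl11 to -0.27 in Rpl4.

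Of the acidic stalk, which recruits the factors that drive translation, both measured members were lower in fiona than in mdx. Rplp0, its base, averaged 13.34 ± 0.28 in fiona, 13.69 ± 0.12 in mdx and 13.53 ± 0.16 in normal muscle (SD; n = 5, 6 and 6), a fiona minus mdx difference of -0.35 (SE 0.11, adjusted p 0.0263). Rplp2 averaged 12.54 ± 0.21, 12.91 ± 0.30 and 12.51 ± 0.15 in the same groups, and its difference was -0.37 (SE 0.13, adjusted p 0.0424). Against normal muscle, neither was called in mdx, with adjusted p 0.384 for Rplp0 and 0.0978 for Rplp2.

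Rps6, the substrate of S6 kinases, was the member called higher in fiona, and its probe set was close to background. Rps6 had 3.18, 3.06, 3.35, 3.30 and 3.43 on fiona arrays 1 to 5, against 3.01, 3.05, 2.98, 3.005, 2.92 and 2.97 on mdx arrays 1 to 6. The groups did not overlap, as in 30.2% of all genes with fiona higher, and the difference was 0.28 (SE 0.06, adjusted p 0.0135). Taken relative to each array's background level, the difference was 0.08. Its other probe set was dimmer and gave a difference of -0.02 (adjusted p 0.820 over all probe sets).

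Arrays and scaling moved this count too. Without mdx array 1, 16 members were called lower, against 5.70% of all genes, and without fiona array 5, 14 were, against 4.62% of all genes. Without the arrays of female pattern, which leaves fiona array 4 alone in its group with its spread assumed to be that of the other groups, 9 members were lower and 2 higher, with a median of -0.15, where 2.90% of all genes were lower and 9.89% higher. The higher ones were Rps6, with a difference of 0.32 (adjusted p 0.0228), and Rps27, at array background, with a difference of 0.13 (adjusted p 0.0376). Within the set of 8 arrays 17 were lower and 1 higher, Rps6 (0.27, adjusted p 0.0188), where 6.43% of all genes were lower and 28.2% higher. Within the set of 9 arrays 0 members were called, where 0.783% of all genes were lower and 0.105% higher, and 22 members were lower at an unadjusted p under 0.05 with a median of -0.41. With each array centred on its median, the median difference of all genes was -0.04, against 0.08 without centring, and 646 genes were called higher and 786 lower, against 3977 and 841. The members again gave 22 lower and 1 higher, with a median difference of -0.45.

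**Figure D3:**
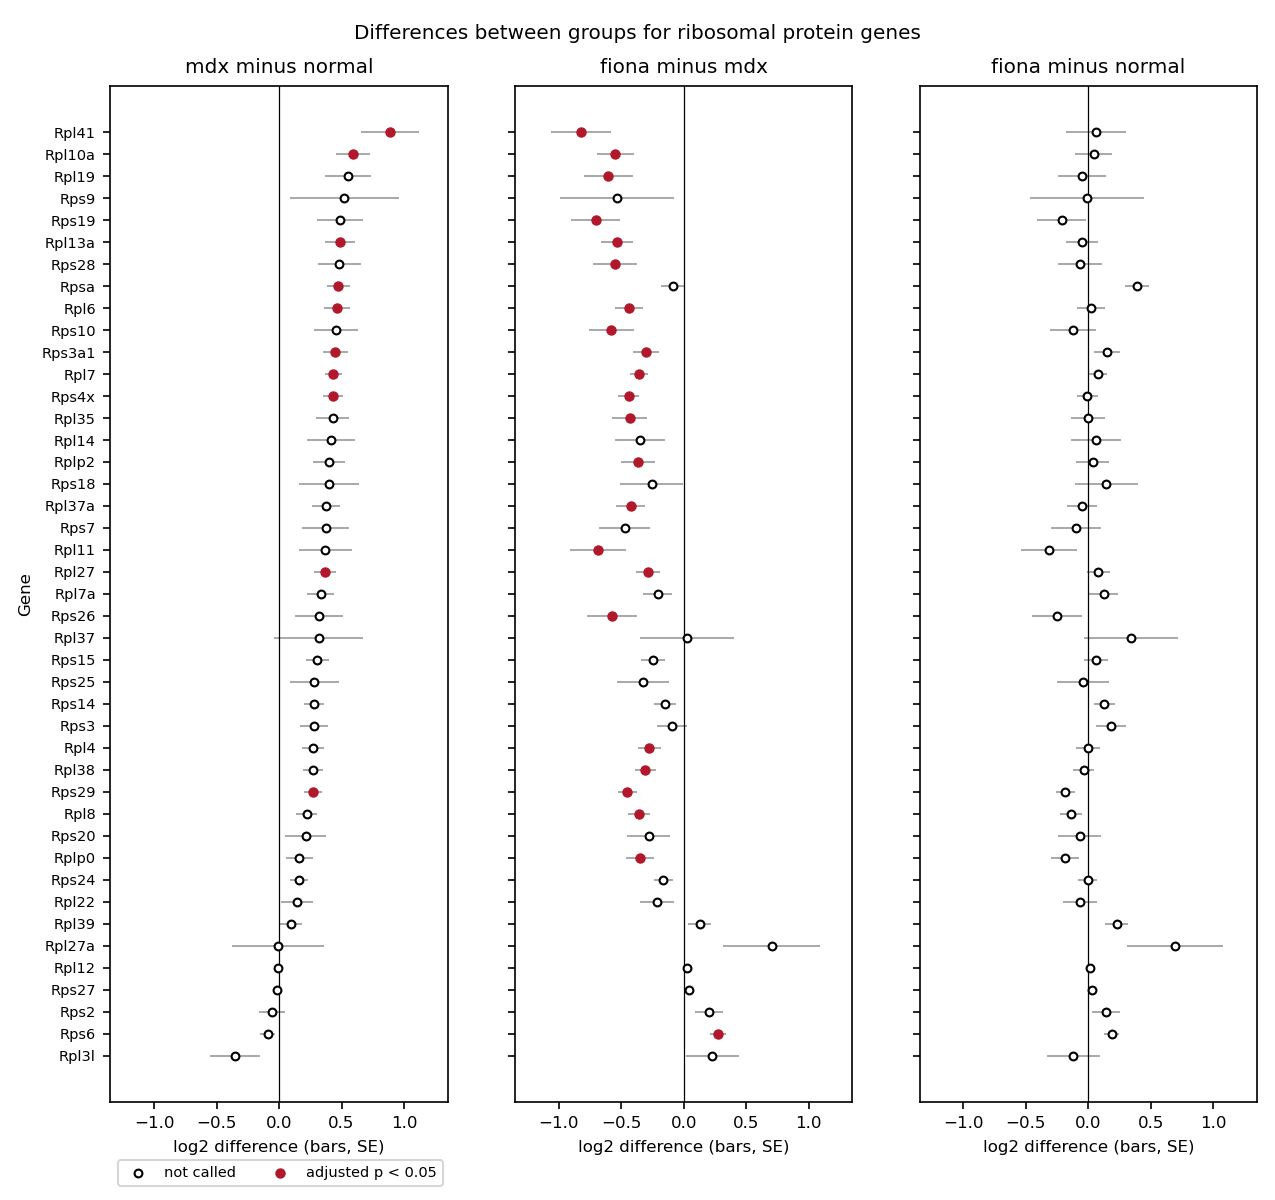
Log2 differences of the 43 genes are shown for mdx minus normal, fiona minus mdx and fiona minus normal, with the standard error as bars and filled points for an adjusted p under 0.05. Points lie mostly right of 0 in the first panel, mostly left of 0 in the second and on both sides of 0 in the third, where none is filled.

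fiona muscle was compared with normal muscle to ask what differs between transgenic dystrophic and healthy muscle. By limma 0 of the 43 members and 0 of all 12393 genes (0%) passed the adjusted threshold, while 4 members and 2626 genes had an unadjusted p under 0.05. The median difference of the members was -0.0020, against 0.04 over all genes, and 21 of 43 were positive. The widest positive differences were those of Rpl27a (0.69), Rpsa (0.39), Rpl37 (0.34), Rpl39 (0.23), Rps6 (0.19) and Rps3 (0.18). The widest negative ones were those of Rpl11 (-0.31), Rps26 (-0.25), Rps19 (-0.21), Rplp0 (-0.19), Rps29 (-0.18) and Rpl8 (-0.14). Without the arrays of female pattern, again with fiona array 4 alone in its group, 2 members were lower in fiona, Rplp0 with a difference of -0.50 (adjusted p 0.00293) and Rps10 with a difference of -0.72 (adjusted p 0.0157), where 1.08% of all genes were lower and 2.68% higher. Without fiona array 2, 6.91% of all genes and 2 members were higher, Rps6 with a difference of 0.24 (adjusted p 0.0434) and Rpsa with a difference of 0.41 (adjusted p 0.0437).

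The level of Rpsa in fiona was close to that in mdx. Its level was 10.93, 10.84, 10.86, 10.91 and 11.004 on fiona arrays 1 to 5, which lay within the range of the mdx arrays and above all 6 normal arrays. The fiona minus normal difference was 0.39 (SE 0.10, adjusted p 0.210), with no overlap of the groups, as in 0.339% of all genes with fiona higher. The fiona minus mdx difference was -0.08 (SE 0.10, adjusted p 0.526). Rpsa has a second, dim probe set with a mean of 3.19, close to background, on which mdx minus normal was -0.10 (adjusted p 0.349 over all probe sets). On that probe set fiona minus mdx was 0.30 (adjusted p 0.0120) and fiona minus normal 0.20 (adjusted p 0.198).

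Rpl3l, the muscle paralogue, had its highest mean in normal muscle. Rpl3l had 12.03, 12.75, 12.28, 11.78 and 12.24 on fiona arrays 1 to 5. On mdx arrays 1 to 6 it had 12.18, 12.30, 11.87, 11.25, 11.91 and 12.41. On normal arrays 1 to 6 it had 12.46, 12.76, 11.99, 12.28, 12.06 and 12.47. The 3 groups overlapped. The mdx minus normal difference was -0.35 (SE 0.20, adjusted p 0.360), with a two-sided exact permutation p of 0.121 over 924 divisions of the 12 arrays. The fiona minus mdx difference was 0.23 (SE 0.21, adjusted p 0.416), with an exact permutation p of 0.385, and turned to -0.35 (adjusted p 0.497) without the arrays of female pattern. The fiona minus normal difference was -0.12 (SE 0.21, adjusted p 0.772), with an exact permutation p of 0.550. The smallest p these divisions allow is 0.0022.

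Altogether 19 members were called in none of the 3 comparisons. Over all genes, 4.66% were called in mdx against normal, 38.9% in fiona against mdx and 0% in fiona against normal. Some of the 19 have another bright probe set that was called in the limma fit over all probe sets. For Rps7 it had a mean of 11.8 and was higher in mdx than in normal (0.52, adjusted p 0.00403). For Rps24 it had a mean of 12.7 and was lower in fiona than in mdx (-0.50, adjusted p 0.0138). Rps9, a small subunit protein, varied widely within each group. Rps9 had 12.39, 11.24, 10.52, 12.58 and 10.76 on fiona arrays 1 to 5. On mdx arrays 1 to 6 it had 12.47, 11.10, 12.43, 12.44, 12.28 and 11.45. On normal arrays 1 to 6 it had 10.74, 10.66, 12.44, 12.02, 12.21 and 10.98. In each group the values fell into a high and a low part, and the 8 arrays of one array set all lay at 12.02 or above. Of the 9 arrays of the other set only mdx array 1, at 12.47, did so. Its mdx minus normal difference was 0.52 (SE 0.43, adjusted p 0.446). A second Rps9 probe set, with a mean of 9.87, was lower in fiona than in mdx (-0.76, adjusted p 0.00755 over all probe sets), and its mdx minus normal difference was 0.49 (adjusted p 0.0655). Rpl27a in fiona averaged 6.91 ± 1.04, against 6.20 ± 0.36 in mdx (SD, n = 5 and 6), and its fiona minus mdx difference was 0.70 (SE 0.39, adjusted p 0.162). Rps2, of the small subunit, averaged 12.33 ± 0.24 in fiona, 12.13 ± 0.10 in mdx and 12.19 ± 0.20 in normal muscle (SD; n = 5, 6 and 6), with an mdx minus normal difference of -0.06 (SE 0.10, adjusted p 0.714). Rpl14 and Rps25, dim elsewhere, reached 4.44 and 4.10 on mdx array 1, above their values on the other 16 arrays. Rpl12 and Rps27 gave no usable ratio, since they were at background in every group.

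Ribosomal protein genes have many processed pseudogenes, and 21 members were read by more than 1 probe set. Called members read on a probe set that can bind related transcripts were Rpl7, Rpl13a, Rpl35, Rpl37a, Rpl38, Rpl41 and Rps29. Over the 81 member probe sets above background on every array, in a limma fit over all 22626 probe sets, 18 were higher in mdx than in normal and 0 lower, where 2.73% of all probe sets were higher and 1.30% lower. In fiona against mdx 36 were lower and 5 higher, where 6.08% of all were lower and 36.0% higher. The 5 higher were dim probe sets of Rps6, Rps18, Rps20 and Rpsa, with means from 3.10 to 3.52, close to background. Of the 18 members with several such probe sets, all of a member's probe sets were above 0 for mdx minus normal in 14, and all below 0 for fiona minus mdx in 13. For Rpl41, whose main probe set is of the kind that can bind related transcripts, the fiona minus mdx difference was 0.043 (adjusted p 0.682) once such probe sets were left out, read on a dim probe set, and -0.13 (adjusted p 0.772 over all probe sets) on its next brightest probe set. A further 102 probe sets are listed with several symbols, at least 1 of them a ribosomal protein, and were not assigned to genes. Of these, 23 were higher in mdx than in normal and 0 lower, and 29 were lower and 11 higher in fiona than in mdx.

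Other genes of the translation machinery were read from lists chosen with earlier results of these data known. Elongation factors and transcripts listed for a TOP motif formed a list that also held other translation genes, namely Gspt1, Etf1 and Eef2k. The motif was not checked in these genes. Of the 17 measured, 2 were higher and 0 lower in mdx against normal, and 0 were higher and 6 lower in fiona against mdx. The median differences were 0.22 and -0.29. The shares over all genes were 3.22% higher and 1.44% lower in the first comparison, and 32.1% higher and 6.79% lower in the second. Eef1a1, which delivers aminoacyl-tRNA to the ribosome, had the widest difference of the list in both comparisons. Eef1a1 had 11.09, 12.23, 12.10, 11.45 and 12.03 on fiona arrays 1 to 5. On mdx arrays 1 to 6 it had 13.31, 12.87, 12.89, 13.38, 12.997 and 13.06. On normal arrays 1 to 6 it had 12.01, 11.59, 11.74, 11.89, 11.58 and 11.90. All mdx arrays lay above both other groups. Its mdx minus normal difference was 1.30 (adjusted p 2.40e-04) and its fiona minus mdx difference -1.31 (adjusted p 4.83e-04). Pabpc1, the poly(A) binding protein, was higher in mdx than in normal (difference 0.87, adjusted p 0.00392) and lower in fiona than in mdx (difference -0.82, adjusted p 0.00900). Gspt1, a termination factor, was also lower in fiona than in mdx (difference -1.16, adjusted p 0.0157). Eef1a2, the muscle form of elongation factor 1 alpha, had an mdx minus normal difference of -0.33 (adjusted p 0.562), and Eef2 one of -0.26 (adjusted p 0.571).

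The lists for ribosome assembly and its control were mostly not called. Over all genes, 3.22% were higher and 1.44% lower in mdx against normal, and 32.1% higher and 6.79% lower in fiona against mdx. Of 48 measured genes of ribosome assembly and ribosomal RNA synthesis, 0 were higher and 1 lower in mdx, the nucleolar phosphoprotein Nolc1 (-0.70, adjusted p 0.0266), while in fiona against mdx 3 were higher and 3 lower. The 3 lower were Heatr1, a factor of pre-rRNA processing (-0.998, adjusted p 0.0479), the nucleolar chaperone Npm1 (-0.82, adjusted p 0.0457) and the rRNA methyltransferase Fbl (-0.49, adjusted p 0.0465). The 3 higher were Taf1d (0.47, adjusted p 0.0488) and Nolc1 (0.48, adjusted p 0.0442) and, at a low level, Pes1 (0.26, adjusted p 0.0183). Of 28 initiation factors 0 were called in mdx against normal, and 1 was higher and 3 lower in fiona against mdx. The higher one was Eif2s2 (0.40, adjusted p 0.0441), a subunit of the factor that brings the initiator transfer RNA. The lower ones were Eif1ax (-0.77, adjusted p 0.0136), which acts in start codon selection, the cap-binding Eif4e (-0.49, adjusted p 0.0442) and Eif3l (-0.47, adjusted p 0.0309). The 23 genes listed for the mTOR pathway also held Pdk1, a pyruvate dehydrogenase kinase, and Larp7, which lie outside it. Of the 23, Rragd, a GTPase that brings mTOR complex 1 to lysosomes, was lower in mdx than in normal (-1.56, adjusted p 0.0166) and 0 were higher. In fiona against mdx 3 were higher and 2 lower. The 2 lower were Eif4ebp1, the repressor of cap binding that mTOR phosphorylates (-0.78, adjusted p 0.0135), and Rragc (-0.65, adjusted p 0.0156). The 3 higher were the kinase Mtor (0.43, adjusted p 0.0364), Sesn2 (0.09, adjusted p 0.0223) and Rictor (0.07, adjusted p 0.0263), which was at or under background on all 17 arrays. Of 13 Myc family genes and activators, Mxi1, an antagonist of Myc, was the 1 called in mdx against normal, and it was lower (-0.65, adjusted p 0.0473). In fiona against mdx 2 of the 13 were higher and 1 lower, Tbpl1 (-0.69, adjusted p 0.0133). The higher ones were Mxi1 (0.50, adjusted p 0.0448) and Mycl (0.13, adjusted p 0.0216), which was at or under background on all 17 arrays. Of 5 measured paralogues that the rule left out, 0 were called in mdx against normal, and the dim Rpl39l was higher in fiona than in mdx (0.11, adjusted p 0.0226).

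**Figure D4:**
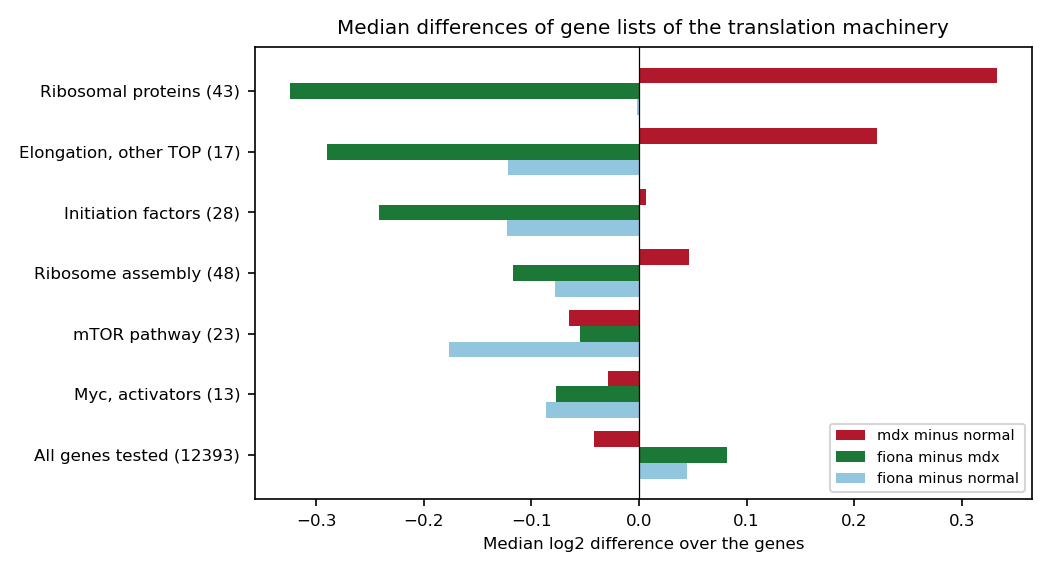
Bars give the median log2 difference over the genes of each list, with the number of genes in brackets, for mdx minus normal, fiona minus mdx and fiona minus normal. Ribosomal proteins have medians of 0.33, -0.32 and -0.0020 in that order, against -0.04, 0.08 and 0.04 over all genes tested.

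Most markers of macrophages, regenerating fibres and fibroblasts moved with the same groups. Of 16 macrophage markers 14 were higher in mdx than in normal, and 15 were lower in fiona than in mdx. Their mean level per array ranged from 4.81 to 5.66 in fiona, from 7.89 to 8.97 in mdx and from 4.62 to 5.56 in normal muscle, and mdx array 1 was the highest. Cd68, a defining marker, averaged 2.55 in fiona, 6.78 in mdx and 2.34 in normal muscle, and lay at or under background on the 11 fiona and normal arrays. Markers of regenerating fibres and myoblasts were higher in mdx in 9 of 15, and in fiona against mdx 10 were lower and 1 higher. Their array means ranged from 5.07 to 5.54 in fiona, 6.13 to 8.16 in mdx and 4.72 to 5.03 in normal muscle. Fibroblast markers were higher in mdx in 4 of 10, and in fiona against mdx 7 were lower and 1 higher. Their array means ranged from 6.95 to 8.19 in fiona, 8.56 to 9.62 in mdx and 7.42 to 8.68 in normal muscle. Of 9 lymphocyte markers, Ptprc, which other leukocytes also carry, was higher in mdx than in normal (3.18, adjusted p 2.17e-05) and lower in fiona than in mdx, and the other 8 were not called in mdx against normal. In fiona against mdx 6 of the 9 lymphocyte markers were higher, against 32.1% of all genes, by 0.08 to 0.67. Of the genes at or under background on some array, 56.1% were higher. The lymphocyte markers were dim as a list, with array means of 3.05 to 3.40 in fiona, 3.21 to 3.38 in mdx and 2.93 to 3.10 in normal muscle. Of the 9, 2 were at or under background on all arrays. Endothelial markers had 0 of 9 called in both comparisons. Of 10 markers of muscle fibres 0 were called in mdx against normal, and in fiona against mdx 1 was higher and 0 lower. Their array means of 14.1 to 14.6 overlapped between all groups. Mean levels of the 18S ribosomal RNA control probe sets ranged from 5.95 to 13.2 in fiona, 6.19 to 9.46 in mdx and 8.24 to 11.97 in normal muscle. The part of these cell types, of mdx array 1 and of RNA quality in the ribosomal protein differences was not tested.

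**Figure D5:**
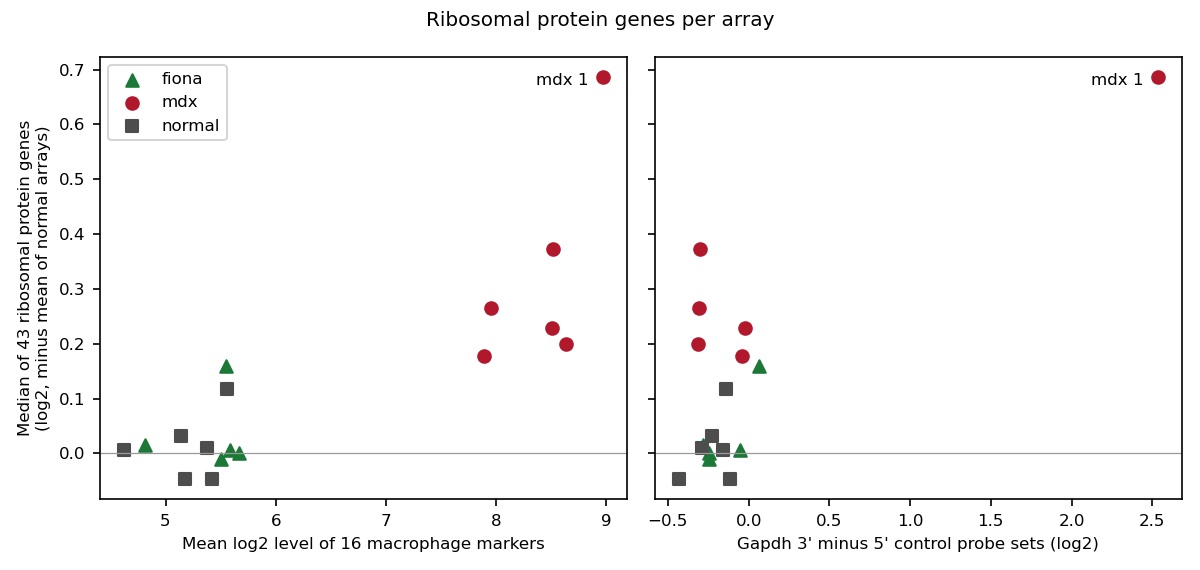
The median of the 43 ribosomal protein genes per array, in log2 relative to the mean of normal arrays, is plotted against the mean level of 16 macrophage markers on the left and the 3′ minus 5′ difference of the Gapdh control probe sets on the right, with 1 point per fiona, mdx or normal array. The 6 mdx arrays lie apart from the rest in macrophage markers, and mdx 1 lies apart from all arrays in the Gapdh difference.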

How the data were processed

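Arrays of 5 fiona, 6 mdx and 6 normal mice were analysed. The deposited table gives, for every probe set, a log2 value made by the authors. RMA and GCRMA are both named in the submitters' processing notes, without saying which one was applied to it. Per the labels' protocols, 8 µg of total RNA was labelled with a one-cycle kit. Of 22690 probe sets, 64 were controls, 691 had several symbols and 1555 had none. The 20380 with 1 symbol covered 12393 genes, each read on its brightest probe set. As a result Rpl3 was on no single-symbol probe set, so its planned test and the comparison of Rpl3l with it were not run.

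A single limma 3.58.1 fit in R 4.3.3 (lmFit and eBayes) held the 3 group means, with Benjamini-Hochberg adjustment over all genes and no filter. Rpl3l also had exact permutation tests (SciPy 1.17.1). The fit was tested on simulated data. Figures were drawn with matplotlib 3.10.9. Differences are log2, first group minus second. The titles call the samples biological replicates, and their number limits the precision. Replicate numbers were checked and did not consistently pair the arrays, so no block was used in the main fit. The members, gene lists and tests were chosen with earlier results of these data known. Named genes were Rpl3l, Rpsa and the stalk genes, all called members or the 12 with the smallest p per direction, the 6 widest differences on either side where fewer than 6 were called, and up to 3 called genes per other list. The values of Rps2, Rps9, Rpl14, Rpl27a, Rps25, Eef1a2, Eef2, Cd68, Ptprc and the other genes behind counts of 5 or fewer were added after values were seen. The array sets came from the sign of the largest residual component. Alternatives were the replicate block, array set, sex pattern, probe set choice, a filter on dim genes, 2 scalings, another eBayes setting and leaving out each array.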

Additional observations from a re-analysis of the deposited data

Results flagged for a closer look

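Of 75 group values tested for an array standing apart by Dixon's ratio, 6 did so, where chance gives about 1 in 20. On mdx array 1, Rpl6 had 11.6 against 11.1 to 11.2 on the other mdx arrays, Rpl7 had 12.6 against 12.2 to 12.3, and Rplp0 had 13.9 against 13.6 to 13.7. On normal array 6, Rpl7 had 12.1 against 11.8 to 11.9 on the other normal arrays, and Rplp0 had 13.8 against 13.4 to 13.5. On fiona array 2 the median of the 43 ribosomal protein genes relative to the normal mean was 0.16, against -0.01 to 0.02 on the other fiona arrays.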

How the results depend on the processing

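The members' median difference stayed positive for mdx minus normal (0.27 to 0.42 over 12 settings, 0.28 to 0.37 leaving out each array) and negative for fiona minus mdx (-0.45 to -0.15, and -0.36 to -0.26). The counts of called members moved more; causes were not tested. For mdx against normal, 10 were higher; 21 were with the array set as a block (against 5.73% of all genes), 16 within the set of 8 arrays with 1 lower (5.56% of all genes higher and 15.1% lower), 0 within the set of 9 (1.39% of all genes higher), and 5 to 13 leaving out each array. For fiona against mdx, 22 were lower and 1 higher. Leaving out each array gave 14 to 23 lower and 1 to 2 higher, and the set of 9 gave 0 of either, where 0.783% of all genes were lower and 0.105% higher. Without the arrays of female pattern, with fiona array 4 alone in its group, the median was -0.15. Without probe sets that can bind related transcripts, 20 of 38 members were lower and 2 higher (6.92% of all genes lower and 32.1% higher). The higher ones, Rps6 and Rps20, were read on dim probe sets with means of 3.10 and 3.46. The bright Rps20 probe sets, left out there, gave differences of -0.28 and -0.53. Centring on array medians gave a median of -0.45. Quantile normalization gave 16 lower, and 1320 genes higher and 571 lower over all genes. For fiona against normal, leaving out each array gave 0 to 2 higher (2 without fiona array 2, where 6.91% of all genes were higher), and leaving out the arrays of female pattern gave 2 lower (1.08% of all genes).

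Signs turned for Rpl3l in fiona minus mdx (-0.35) and, in fiona minus normal, for Rps26 (0.023) and Rpl37 (-0.064), all without the arrays of female pattern, for Rpl41 in fiona minus mdx without probe sets that can bind related transcripts (0.043), for Rps29 in fiona minus normal with the mean of probe sets (0.0099), and in fiona minus normal within array sets for Rpl11 (0.12, set of 9) and Rpl37 (-0.021, set of 8).

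With the replicate number as a block, 8 members were higher in mdx than in normal (2.90% of all genes), and in fiona against mdx 4 were lower and 0 higher, with 324 genes lower and 185 higher over all genes. The numbers did not consistently pair the arrays. Deviations of same-numbered arrays correlated between -0.49 and 0.61, above 0.1 in 7 of 16 pairs, and 1 of 17 arrays correlated best with its own number. The median correlation of same-numbered pairs was 0.08, higher than the -0.14 of pairs with other numbers, both taken between groups. Probe sets at background limit what could be seen for Rpl12, Rps25 and Rps27.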
